A study of Mus musculus with 18 samples.

Results

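The comparison described here is the late step of a culture time course: wild-type (WT) mouse dorsal root ganglion (DRG) cultures collected at 48 h against WT cultures collected at 24 h, across all 17198 genes measured. It uses 6 of the 18 samples of the series, chosen by the genotype and time in their titles, with 3 biological replicates a group. The 24 h cultures carry the replicate numbers 1, 2 and 5 and the 48 h cultures the numbers 1, 2 and 3. The WT cultures at 12 h (1, 2 and 5) are used to find genes that turned back after 24 h. Cultures from mice heterozygous (HET) for the Dynlrb tm1a allele, as the series names it, were collected at 24 h (1, 2 and 5) and at 48 h (1, 2 and 3). They give the same step in animals whose values do not enter the WT means. Their values do enter the spread of each gene, which was estimated from all 18 samples. The WT cultures are labelled wild type, with no altered allele given. The labels call the material DRG neurons and give no treatment. The sources used here do not give strain, age, sex, dissociation, medium, any purification of neurons, or whether cultures of different times came from the same animals.

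DRG neurons are the sensory neurons that carry touch, pain, temperature and limb position to the spinal cord, and their cell bodies lie in ganglia together with satellite glia, Schwann cells, fibroblasts, macrophages, blood vessels and blood. Dissociation cuts their axons, so a culture starts as an injured neuron: injury transcription factors such as Atf3 and Jun and immediate early genes come on, growth-associated genes follow, and genes of the mature sensory state tend to be turned down as new neurites extend. Cells other than neurons can divide in such cultures, whereas mature neurons do not.

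The values are the authors' normalized counts, adjusted before deposit so that no whole number and no 0 remains, and the depth of each library is therefore unknown. Fold changes are differences of mean log2(normalized count + 1), fitted with limma, and a gene is called changed where its p, adjusted by the Benjamini-Hochberg method over all genes, is under 0.05. Within a group, pairs of cultures had a Pearson r between 0.987 and 0.992 over all genes. The samples span 15 of 17 possible dimensions, so 2 directions among the samples are absent from the deposited values, and 27.3% of the direction between WT 24 and 48 h lies within them. A scale was made from the genes called between WT 24 and 48 h, with 0 at the mean WT 24 h culture and 1 at the mean WT 48 h culture. The WT 48 h cultures stood at 1.09, 1.12 and 0.80 on it, and the HET 48 h cultures at 0.84, 0.63 and -0.04. Its genes were chosen by WT calls, so the distance between WT and HET cultures on it is no finding. Among the HET 48 h cultures, replicate 3 lay with the 24 h cultures, and HET results are given with and without it. Xist, which is transcribed from the inactive X chromosome of female cells, was at 25866, 1582 and 36.1 in the WT 24 h cultures and at 17285, 10302 and 19.0 in the WT 48 h cultures, so the cultures differed widely in it within both groups.

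The second day in culture changed a large share of the transcriptome. Of 17198 genes, 4772 were called (27.7%), of which 2999 were higher at 48 h (17.4%) and 1773 lower (10.3%). At least 2-fold changes among them numbered 685 higher (3.98%) and 549 lower (3.19%). The 3 cultures at 48 h lay above all 3 at 24 h in 4758 genes (27.7%) and below them in 3161 (18.4%). The median of all genes was 0.05 on the log2 scale. For comparison, the step from 12 to 24 h in the same genotype, which shares the 24 h cultures, had 622 called genes (3.62%), 509 higher (2.96%) and 113 lower (0.657%). That count was 0 without WT 24 h replicate 1, 2 or 5. In HET the order was the opposite, with 3252 genes called from 12 to 24 h (18.9%) and 429 from 24 to 48 h (2.49%). Without HET 48 h replicate 3 these HET numbers were 3970 and 2560. Leaving out any other HET library of 24 or 48 h gave 0 to 148 genes called from 24 to 48 h in HET. How the WT calls from 24 to 48 h divided by direction changed with the scaling: 62.8% of called genes were higher on the normalized counts, 51.8% on the authors' plain adjusted columns (2439 higher, 2267 lower) and 51.3% after quantile normalization (2284 higher, 2169 lower). The number called also rested on single libraries. It was 2236 without WT 24 h replicate 2, 2297 without WT 48 h replicate 2 and 3134 without WT 48 h replicate 1. Without HET 48 h replicate 3, whose values enter the estimate of spread, it was 5401.

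**Figure D1:**
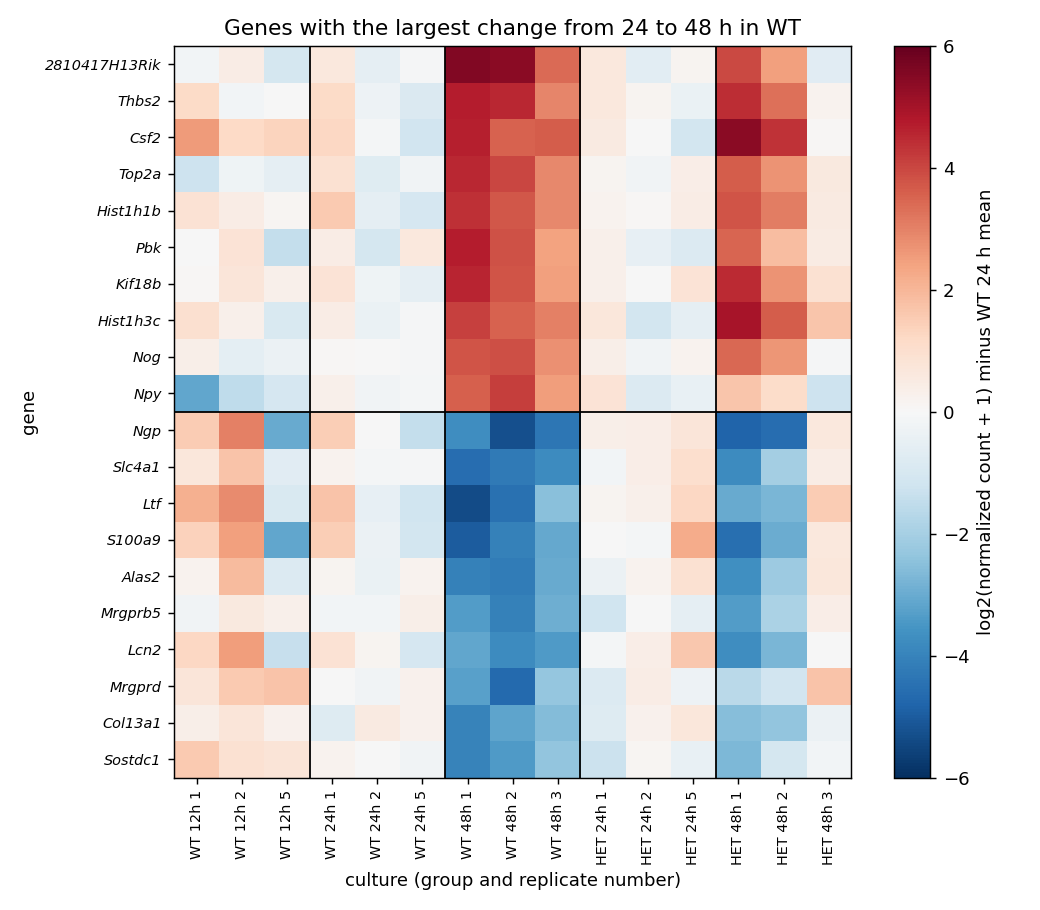
Heat map of the 10 genes with the largest rise (upper block) and the 10 with the largest fall (lower block) from 24 to 48 h in WT, by a rule that also asks for a mean of at least 40 normalized counts. Columns are single cultures, and colour is log2(normalized count + 1) minus the mean of the WT 24 h cultures of that gene, from -6 to 6; the WT 48 h columns are uniformly red or blue, while HET 48 h replicate 3 is near the colour of its 24 h columns in most of the 20 genes.

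The largest rises were in genes of dividing cells, with a matrix gene, signalling proteins and a neuropeptide among them. The 10 genes were 2810417H13Rik, Thbs2, Csf2, Top2a, Hist1h1b, Pbk, Kif18b, Hist1h3c, Nog and Npy. 2810417H13Rik, an older name of Pclaf, which binds the replication clamp PCNA, was at 26.9, 11.1 and 15.8 normalized counts in the 24 h cultures and at 830.0, 758 and 188 in the 48 h cultures, in the order of their replicate numbers. Replicate 3 was the lowest of the later group (log2 fold change 4.79, SE 0.94, adjusted p 0.00361). Top2a (ENSMUSG00000020914, chr11:98992943-99024189 in GRCm38, minus strand), the topoisomerase that untangles chromosomes before they separate, was at 135, 42.4 and 60.9 and then at 1662, 1140.3 and 517, a ratio of means of 14 (log2 fold change 3.80, SE 0.64, adjusted p 0.00343).

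Pbk, a mitotic kinase, went from 11.1, 3.33 and 12.9 to 234, 125 and 47.7, and Kif18b, a kinesin of the mitotic spindle, from 17.8, 7.89 and 6.37 to 254, 144 and 58.2. The replication-linked histone genes Hist1h1b and Hist1h3c went from 26.5, 5.35 and 3.67 to 196, 124 and 67.3 and from 11.9, 6.16 and 7.80 to 161, 109 and 74.6. Histone genes have near-identical copies and how reads were divided among them is not given in the sources used here, so their single values are uncertain. These 4 genes moved by log2 fold changes of 3.65, 3.60, 3.67 and 3.57. For these 10 genes, and for the 10 with the largest falls, that no cultures overlap between 24 and 48 h was part of the rule that chose them.

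The other members of this group do not belong to the cell cycle. Thbs2, a thrombospondin secreted into the matrix, was at 569, 208 and 141 at 24 h and at 6716, 5851 and 1928 at 48 h (log2 fold change 4.04, SE 0.78, adjusted p 0.00352). Nog, the secreted antagonist noggin of bone morphogenetic proteins, was at 299, 272 and 271 and then at 3789, 4079.6 and 1910.5, a narrow group followed by one more than 10 times as high on average, with a ratio of means of 11.6 (log2 fold change 3.46, SE 0.58, adjusted p 0.00343). Npy, neuropeptide Y, which DRG neurons are known to express after axon injury, was at 89.9, 62.2 and 66.8 and then at 887, 1297 and 415 (log2 fold change 3.42, SE 0.72, adjusted p 0.00460). Csf2, the cytokine GM-CSF, was scarce at 24 h (13.5, 4.57 and 1.75) and stood at 154, 70.5 and 75.4 at 48 h (log2 fold change 3.96, SE 1.03, adjusted p 0.0115). All 10 genes kept their call with each WT library left out in turn. All 10 had a higher mean log2 value at 48 h than at 24 h in HET, as had 53.4% of all genes, and 1 of them was called higher there, beside 1.42% of all genes.

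Top2a and Cdk1 are shown by their promoters because genes of mitosis are known to share CCAAT boxes, which the factor NF-Y binds, and the rising group is rich in such genes. The 250 bases before the RefSeq start (GRCm38.p6) are printed 5′ to 3′ on the gene's strand, with every CCAAT, or its reverse complement ATTGG, in capitals. The windows are chr11:99024190-99024439 on the minus strand for Top2a and chr10:69352913-69353162 on the minus strand for Cdk1.
Top2a: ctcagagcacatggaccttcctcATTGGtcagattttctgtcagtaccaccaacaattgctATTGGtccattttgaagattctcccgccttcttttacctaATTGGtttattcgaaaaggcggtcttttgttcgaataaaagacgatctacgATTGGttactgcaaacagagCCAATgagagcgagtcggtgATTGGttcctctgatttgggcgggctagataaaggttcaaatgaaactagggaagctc
Cdk1: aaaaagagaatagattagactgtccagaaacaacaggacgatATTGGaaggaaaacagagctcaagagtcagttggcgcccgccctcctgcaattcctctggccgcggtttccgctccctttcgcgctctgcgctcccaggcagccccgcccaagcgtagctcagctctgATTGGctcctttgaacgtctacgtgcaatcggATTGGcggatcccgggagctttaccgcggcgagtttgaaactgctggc
The Top2a window holds 6 matches and the Cdk1 window 3. Cdk1, the kinase that starts mitosis, was added after its values were seen and was at 38.9, 30.2 and 42.7 at 24 h and at 277, 252 and 169 at 48 h (log2 fold change 2.59, SE 0.45, adjusted p 0.00343). A RefSeq promoter was found for 12600 of the 17198 genes, of which 35.7% hold CCAAT on either strand within 250 bases. Among the cell cycle genes listed below the share was 73.3% (33 of 45 with a promoter), and among those called 75.7% (28 of 37). At least 2 matches were held by 12.4% of all promoters and by 51.4% of those of the called genes. The GC box GGGCGG, searched on both strands, was in 54.7% of all promoters and in 68.9% of those of the list. Among the called genes its share was 75.7% (28 of 37), the same as for CCAAT. A match describes the letters only, and binding was not measured.

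Most cell cycle and DNA replication genes rose. Of 58 measured, 46 were higher and 1 was lower, with a median log2 fold change of 1.24, beside 17.4% and 10.3% and a median of 0.05 over all genes. Leaving out any 1 WT library left 38 to 45 of them called. Ccna2, the cyclin of S phase and entry into mitosis, was at 74.0, 31.7 and 33.3 at 24 h and at 540.3, 455 and 297 at 48 h (log2 fold change 3.26, SE 0.55, adjusted p 0.00343). The proliferation marker Mki67, named after its values were seen, was at 226, 136 and 209 and then at 1454, 966 and 805 (log2 fold change 2.48, SE 0.47, adjusted p 0.00343). The range within the list was wide, since Pcna, the clamp itself, only went from 1368, 1312 and 1373 to 1727, 1655 and 1697 (log2 fold change 0.33, SE 0.09, adjusted p 0.0150). The 1 gene lower was Cdt1, which licenses replication origins, at 1844, 1829 and 1191 and then 799, 874 and 900.1 (log2 fold change -0.89, SE 0.30, adjusted p 0.0370). Pcna and Cdt1 were also named after their values were seen, and the former missed the threshold without WT 24 h replicate 2 and the latter in all but 1 of the 6 fits that leave a WT library out (highest adjusted p 0.0583 and 0.126).

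The summed normalized count of these 58 genes was from 19856 to 20825 at 24 h and from 32464 to 47076 at 48 h. In bulk RNA, fewer or more cells of a type and less or more RNA per cell cannot be told apart, and neither can a rise in non-neuronal cells and one in neurons. The list moved together with the fibroblast genes described next, and their part in the result was not tested.

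Called fibroblast and extracellular matrix genes mostly rose, but their defining markers did not move as 1. Of 34 measured, 16 were higher and 2 lower, with a median of 1.12, beside 17.4% higher and 10.3% lower over all genes. Col1a2, a chain of type I collagen, was at 1994, 1301 and 1561 and then at 14386, 11053 and 7379 (log2 fold change 2.73, SE 0.43, adjusted p 0.00343). Col3a1, the type III collagen chain, was at 1498, 655 and 618 and then at 4601, 4430.5 and 3764 (log2 fold change 2.33, SE 0.47, adjusted p 0.00406), and Timp1, a secreted inhibitor of matrix proteases that injured neurons also express, was at 1832, 1876 and 1978 and then at 11551, 10821 and 4867 (log2 fold change 2.16, SE 0.42, adjusted p 0.00361). Every 48 h culture exceeded every 24 h culture in all of these genes.

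Other defining fibroblast markers went different ways. Col1a1, the partner chain of Col1a2, was at 1642, 1108 and 528 and 4709.6, 2330.3 and 1848 and was not called (log2 fold change 1.47, SE 0.59, adjusted p 0.0753). Dcn, the matrix proteoglycan decorin, was at 2787, 1921 and 1925 and 2818, 2127 and 3109, with overlapping groups (log2 fold change 0.28, SE 0.21, adjusted p 0.322). Pdgfra, a growth factor receptor of fibroblasts, fell from 1159, 1438 and 1064 to 716, 674 and 725 (log2 fold change -0.78, SE 0.23, adjusted p 0.0200), a call lost without WT 24 h replicate 2 or WT 48 h replicate 2 (adjusted p up to 0.0942). The summed list ran from 192998 to 224507 at 24 h and from 220422 to 392370.0 at 48 h, so the lowest 48 h culture lay within the range of the 24 h cultures.

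**Figure D2:**
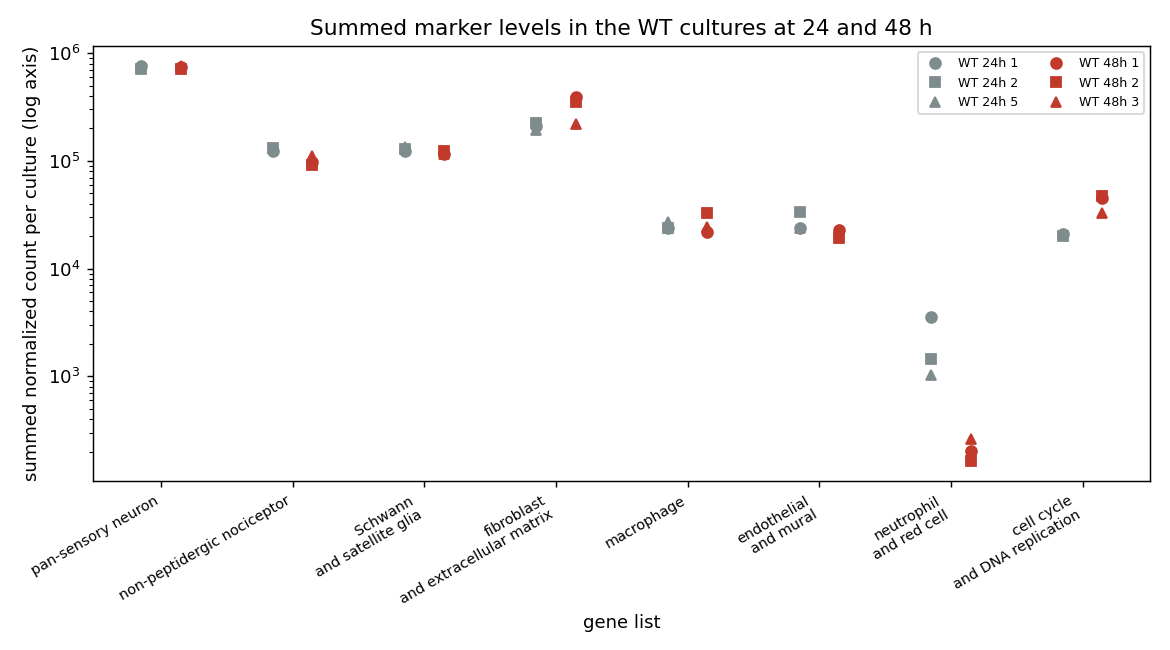
Summed normalized counts (log axis) of 8 gene lists in each WT culture, with grey symbols for 24 h, red symbols for 48 h and marker shapes for the replicates in order of number. Neutrophil and red cell genes fall from between 1019 and 3558 to between 163 and 262. In cell cycle genes every 48 h culture lies above every 24 h culture, and pan-sensory neuron genes lie between 705605 and 763455 at both times.

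Glial, macrophage and endothelial markers showed no common rise. Of 33 Schwann and satellite glia genes, 4 were higher and 7 lower (median -0.19). The share called was 33.3%, beside 27.7% of all genes (17.4% higher and 10.3% lower). Apoe, the lipid carrier made by satellite glia, went from 9569, 10621 and 12372 to 3204, 3175 and 3239 (log2 fold change -1.75, SE 0.39, adjusted p 0.00564). Every 48 h culture lay below every 24 h culture, and the 48 h values were almost equal.

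Erbb3, the neuregulin receptor of Schwann cells, rose from 199.9, 216 and 303 to 523, 659 and 482 (log2 fold change 1.22, SE 0.38, adjusted p 0.0254). The transcription factor Sox10, which defines the Schwann lineage, was at 1270.3, 1603 and 2078 and 1991, 2744 and 1334, with overlapping groups (log2 fold change 0.26, SE 0.31, adjusted p 0.560). Neither S100b (-0.46, adjusted p 0.105) nor Fabp7 (-0.21, adjusted p 0.700) was called. The calls of the list were unstable, at 6 without WT 24 h replicate 1, 7 without WT 24 h replicate 2, 5 without WT 48 h replicate 1 and 6 without WT 48 h replicate 2, against 11 with all libraries. The call ended for Erbb3 without 24 h 1, 24 h 2, 48 h 1 or 48 h 2 (adjusted p up to 0.0970), where libraries are given by time and replicate number.

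Among 24 macrophage genes, 0 were higher and 4 were lower (median -0.11), a share called of 16.7% beside 27.7% of all genes. Of the 4, 3 belong to antigen presentation. Cd74, the invariant chain of class II molecules, went from 461, 689.9 and 455 to 112, 117 and 143 (log2 fold change -2.08, SE 0.38, adjusted p 0.00343), and H2-Aa and H2-Ab1, class II chains, moved by -1.97 (adjusted p 0.00343) and -1.40 (adjusted p 0.00579). The fourth, the lipopolysaccharide co-receptor Cd14, moved by -1.05 (adjusted p 0.0391) and lost its call without any 1 of 5 WT libraries, all but WT 48 h replicate 3. The defining macrophage markers Csf1r (-0.22), Aif1 (0.42), Cd68 (0.44) and Ptprc (-1.22) were not called, with adjusted p from 0.0585 to 0.488.

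Endothelial and mural genes had 1 of 20 higher and 5 lower (median -0.53). The share called was 30%, beside 27.7% of all genes (17.4% higher and 10.3% lower). Cldn5, a tight junction protein of vessels, went from 179, 256 and 147 to 68.8, 28.2 and 63.1 (log2 fold change -1.91, SE 0.40, adjusted p 0.00464), and Selp, an adhesion molecule of endothelium and platelets, from 165, 187 and 103 to 64.8, 24.7 and 75.1 (log2 fold change -1.55, SE 0.38, adjusted p 0.00860). The 1 higher was Cspg4, a proteoglycan of pericytes (1.09, adjusted p 0.0233). Of the defining markers, Cdh5 (-0.80) and Kdr (-0.67) fell and Pecam1 (-0.51, adjusted p 0.0944) was not called. The list had 3 without WT 24 h replicate 2, 3 without WT 48 h replicate 1 and 1 without WT 48 h replicate 2. Single calls ended for Selp without 48 h 2 (adjusted p 0.0503), Cspg4 without 24 h 5, 48 h 1 or 48 h 2 (adjusted p up to 0.0988), Cdh5 without 24 h 2 or 48 h 2 (adjusted p up to 0.162) and Kdr without 24 h 2, 24 h 5, 48 h 1, 48 h 2 or 48 h 3 (adjusted p up to 0.222).

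The largest falls were led by genes of blood cells. The 10 genes were Ngp, Slc4a1, Ltf, S100a9, Alas2, Mrgprb5, Lcn2, Mrgprd, Col13a1 and Sostdc1, with log2 fold changes from -4.45 to -3.26. Slc4a1 (ENSMUSG00000006574), the anion exchanger of the red cell membrane, was at 160.1, 126 and 130.2 and then at 4.81, 6.42 and 9.16, a ratio of means of 20.4 between 24 and 48 h (log2 fold change -4.19, SE 0.75, adjusted p 0.00343). Alas2, the first enzyme of haem synthesis in red cell precursors, was at 154, 102 and 159 and then at 7.22, 6.57 and 15.7 (log2 fold change -3.75, SE 0.80, adjusted p 0.00487).

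Neutrophil granule genes varied more at 24 h. Ngp, a granule protein, was at 464, 166 and 61.4 and then at 11.8, 3.33 and 7.39 (log2 fold change -4.45, SE 1.35, adjusted p 0.0229), and S100a9, a calcium-binding protein that neutrophils hold in large amounts, was at 1045, 291 and 176 and then at 10.7, 21.9 and 44.4 (log2 fold change -4.04, SE 1.28, adjusted p 0.0277). Ltf, lactoferrin, went from 299.6, 65.4 and 39.6 to 1.25, 3.24 and 15.3 (log2 fold change -4.11, SE 1.11, adjusted p 0.0133), and Lcn2, lipocalin of neutrophils and inflamed tissue, from 191, 118 and 51.1 to 11.2, 6.64 and 9.13 (log2 fold change -3.43, SE 0.91, adjusted p 0.0120). WT 24 h replicate 1 held the highest value of all 4 at 24 h. Calls ended for Ngp without 24 h 1, 24 h 2 or 48 h 2 (adjusted p up to 0.0910), Ltf without 24 h 1, 48 h 1 or 48 h 2 (adjusted p up to 0.0641) and S100a9 without 24 h 1, 24 h 2, 48 h 1 or 48 h 2 (adjusted p up to 0.109).

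Of 16 neutrophil and red cell genes measured, 8 fell and 0 rose, beside 10.3% lower and 17.4% higher over all genes. This list had the lowest median of the 36 lists, at -2.75. Its summed count was from 1019 to 3558 at 24 h and from 163 to 262 at 48 h. The list had 4 without WT 24 h replicate 1, 5 without WT 24 h replicate 2, 5 without WT 48 h replicate 1 and 4 without WT 48 h replicate 2 called. S100a8, the partner of S100a9 and a defining marker, was at 568, 221 and 92.5 and 63.2, 41.9 and 41.8 and was not called (adjusted p 0.103).

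Col13a1, a collagen that spans the cell membrane, went from 247, 617 and 507 to 25.5, 46.9 and 68.8 (log2 fold change -3.26, SE 0.51, adjusted p 0.00343), and Sostdc1, a secreted antagonist of Wnt and bone morphogenetic protein signals, from 156, 132 and 116 to 7.24, 11.9 and 25.1 (log2 fold change -3.26, SE 0.52, adjusted p 0.00343). Both kept their call without any 1 WT library. All 10 of the genes with the largest falls had a lower mean log2 value at 48 h in HET, as had 46.6% of all genes, and limma called 0 of them there, beside 1.08% of all genes, while 6 had an unadjusted p under 0.05.

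**Figure D3:**
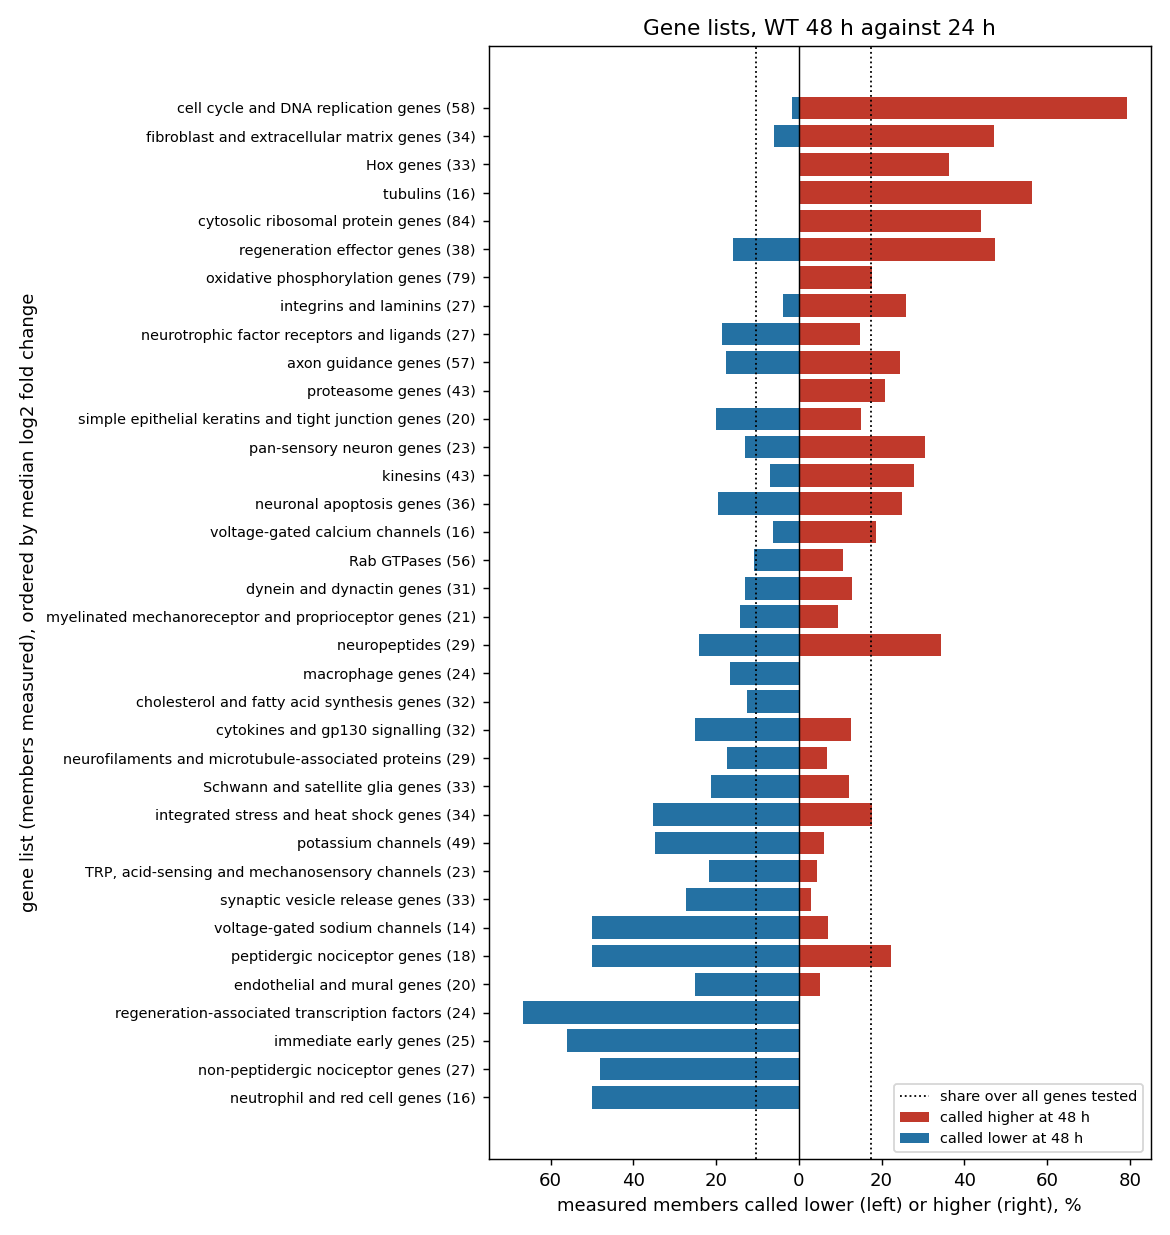
Share of measured members called higher (red, right) and lower (blue, left) from 24 to 48 h in WT for 36 gene lists, ordered by median log2 fold change, with dotted lines at the shares over all genes tested (17.4% and 10.3%). Cell cycle genes have the highest share of rising members (46 of 58) and regeneration-associated transcription factors the highest share of falling ones (16 of 24).

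All called genes of the non-peptidergic nociceptors, the pain and itch neurons that innervate the skin surface, fell. Of 27 measured, 13 were lower and 0 higher, with a median of -0.98, beside 10.3% lower and 17.4% higher over all genes. Mrgprd (ENSMUSG00000051207, chr7:145314835-145324086), the receptor that defines most of these cells, was at 1845, 1611 and 2239 and then at 198, 73.1 and 381, a ratio of means of 8.72 between 24 and 48 h (log2 fold change -3.40, SE 0.68, adjusted p 0.00377). Mrgprb5, a relative of it, was at 71.9, 71.3 and 104 and then at 7.05, 4.02 and 9.77 (log2 fold change -3.44, SE 0.64, adjusted p 0.00343). The Mrgpr genes form a large family of similar sequences, so their separate values are uncertain.

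Itch neuron genes outside that family moved the same way. Il31ra, the receptor for the itch cytokine interleukin-31, was at 561, 418 and 522 and then at 67.0, 65.5 and 101 (log2 fold change -2.68, SE 0.53, adjusted p 0.00378), and the peptide Sst, somatostatin, was at 109.7, 95.8 and 107 and then at 22.0, 12.7 and 24.9 (log2 fold change -2.38, SE 0.48, adjusted p 0.00403). In both, the highest 48 h culture was at less than the lowest 24 h culture. The list had 8 without WT 24 h replicate 5, 8 without WT 48 h replicate 1 and 8 without WT 48 h replicate 2 called.

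Peptidergic nociceptor genes fell in part. Of 18, 9 were lower and 4 higher (median -0.49), beside 10.3% lower and 17.4% higher over all genes. Calcb, a precursor of the vasodilator peptide CGRP, was at 8593, 5664 and 6849 and then at 2215, 1904 and 3714 (log2 fold change -1.47, SE 0.36, adjusted p 0.00842), and Tac1, the precursor of substance P, was at 7541, 5376 and 7118 and then at 2841, 1914 and 3722 (log2 fold change -1.28, SE 0.32, adjusted p 0.00938). Nos1, the neuronal nitric oxide synthase, went from 508, 483 and 376 to 301, 221 and 215 (log2 fold change -0.89, SE 0.22, adjusted p 0.00929). The 4 that rose were Bmpr1b, Gfra3, Th and Adcyap1, with log2 fold changes from 0.58 to 0.75, given after their values were seen, and of these 4 Gfra3 alone kept its call in all fits that leave out 1 WT library. Members such as Th are counted as listed, and which class of neuron their RNA came from was not measured. The list had 7 without WT 48 h replicate 2, and Tac1 lost its call without that library (adjusted p 0.0558).

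In the myelinated mechanoreceptor and proprioceptor list, 2 of 21 were higher and 3 lower (median -0.05), and members of 1 cell type went opposite ways. The share called was 23.8%, beside 27.7% of all genes. Spp1, osteopontin, which marks proprioceptors and also injured cells, rose from 1755, 1044 and 1213 to 6693, 6944 and 5706 (log2 fold change 2.30, SE 0.39, adjusted p 0.00343). Etv1, a transcription factor of proprioceptors, fell from 559, 486 and 464 to 278, 127 and 226 (log2 fold change -1.32, SE 0.31, adjusted p 0.00667), and Ntrk3, their neurotrophin receptor, from 2179, 2726 and 1686 to 1305, 1085 and 1052 (log2 fold change -0.92, SE 0.33, adjusted p 0.0485). Whrn, a scaffold protein of these neurons, went from 810.0, 789.6 and 525 to 1460.5, 2195 and 1356 (log2 fold change 1.23, SE 0.35, adjusted p 0.0169). The list had 3 without WT 48 h replicate 2. Calls ended for Ntrk3 without 24 h 1, 24 h 2, 48 h 1, 48 h 2 or 48 h 3 (adjusted p up to 0.175) and Whrn without 24 h 5 or 48 h 2 (adjusted p up to 0.0856).

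General sensory neuron genes were called more often than all genes (43.5% beside 27.7%) and in both directions. Of 23 measured, 7 were higher and 3 lower, with a median of 0.09, which was 0.02 on the plain adjusted columns. Uchl1, an abundant neuronal enzyme of ubiquitin turnover, was at 79692, 71565 and 73449 and 74898, 70753 and 79809.8 (log2 fold change 0.00, SE 0.09, adjusted p 0.975), and Avil, an actin regulator of sensory neurons, was at 60526, 53899 and 59893 and 53953, 56104 and 63157 (log2 fold change -0.01, SE 0.09, adjusted p 0.939). The groups overlapped in both, and the labelled cell type was present in all 6 cultures by these defining markers.

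A transcription factor of sensory identity and 2 related regulators rose. Isl1, a homeodomain factor of sensory neuron identity, was at 3399.6, 2448 and 3199 and then at 8217, 9847 and 8449.5 (log2 fold change 1.56, SE 0.24, adjusted p 0.00343). Pou4f2, a relative of the sensory factor Brn3a, was at 89.3, 103 and 148 and then at 637, 477 and 393 (log2 fold change 2.14, SE 0.47, adjusted p 0.00532), and Elavl4, the neuronal RNA-binding protein HuD, was at 7268, 5993 and 7794 and then at 20345, 20554 and 17022 (log2 fold change 1.46, SE 0.24, adjusted p 0.00343). All 3 groups were apart, and these calls held without any 1 WT library. Snap25, a synaptic membrane fusion protein, fell from 42041, 36854 and 39078 to 30089.6, 25311 and 27227 (log2 fold change -0.52, SE 0.14, adjusted p 0.0130), a call lost without WT 48 h replicate 2 (adjusted p 0.0616).

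Most called sodium and potassium channels of the excitable membrane fell. Of 14 sodium channel genes, 7 were lower and 1 higher (median -0.37), beside 10.3% lower and 17.4% higher over all genes. Scn11a, the persistent sodium channel Nav1.9 of nociceptors, was at 18409, 19165 and 18626 and then at 8091, 5223 and 10588 (log2 fold change -1.29, SE 0.27, adjusted p 0.00442). Scn10a, the Nav1.8 channel that carries most of the nociceptor action potential, was at 37889, 43851 and 34563 and then at 21824, 18016 and 28673 (log2 fold change -0.78, SE 0.17, adjusted p 0.00531). Scn1a, the Nav1.1 channel, went from 3915, 3546 and 3998 to 2232, 2078 and 1950.2 (log2 fold change -0.87, SE 0.19, adjusted p 0.00555). The groups were apart in each of these. The list had 5 without WT 24 h replicate 2, 5 without WT 24 h replicate 5 and 4 without WT 48 h replicate 2.

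Of 49 potassium channel genes, 17 were lower and 3 higher (median -0.26), beside 10.3% lower and 17.4% higher over all genes. Kcnj11, the pore of the ATP-sensitive channel, went from 238, 200.5 and 221 to 54.3, 71.3 and 85.3 (log2 fold change -1.65, SE 0.38, adjusted p 0.00659), and Kcnt1, a sodium-activated channel, from 4881, 4881 and 4811 to 1991, 1733 and 2816 (log2 fold change -1.19, SE 0.22, adjusted p 0.00343). Both kept their call without any 1 WT library, as did the silent subunits Kcng2 (-1.43) and Kcns1 (-1.25). The number of channel genes called was lower in each such fit, between 11 and 14, with 13 without WT 24 h replicate 1, 11 without WT 24 h replicate 2, 13 without WT 24 h replicate 5, 13 without WT 48 h replicate 1 and 12 without WT 48 h replicate 2.

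Calcium channel genes were called about as often as all genes, at 25.0% beside 27.7%. Of 16, 3 were higher and 1 lower (median 0.04, and -0.03 on the plain adjusted columns). Cacna1h, the low-voltage channel Cav3.2, was at 1043, 1104 and 1141 and then at 3898, 3473 and 2969 (log2 fold change 1.64, SE 0.32, adjusted p 0.00370), and Cacna2d1, the auxiliary subunit that gabapentin binds, was at 13878, 13374 and 15183 and then at 21432, 19154 and 25679 (log2 fold change 0.63, SE 0.17, adjusted p 0.0125). Cacna2d2, its relative, rose by 1.02 (adjusted p 0.00343), and the 1 lower was the subunit Cacnb4 (-0.43, adjusted p 0.0143). The list had 2 without WT 24 h replicate 2. Calls ended for Cacna2d1 without 24 h 2 (adjusted p 0.0533) and Cacnb4 without 24 h 2 or 48 h 2 (adjusted p up to 0.0846).

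Among 23 TRP, acid-sensing and mechanosensory channels, 5 were lower and 1 higher (median -0.28). The share called was 26.1%, beside 27.7% of all genes (10.3% lower and 17.4% higher). Trpa1, the receptor for irritants, went from 3199, 2885 and 3461 to 1148, 878 and 1657 (log2 fold change -1.42, SE 0.33, adjusted p 0.00674), and Asic3, the acid sensor of muscle afferents, from 3212, 3159 and 2718 to 1994, 1935 and 1911 (log2 fold change -0.63, SE 0.14, adjusted p 0.00598). The 1 that rose was another acid-sensing channel, Asic2, from 2053, 2198 and 1840.5 to 3754, 3322 and 3796 (log2 fold change 0.84, SE 0.19, adjusted p 0.00624). The cold receptor Trpm8 moved by -0.71 (adjusted p 0.0160). Without WT 48 h replicate 2 the list had 3 called, and calls ended for Trpm8 without 24 h 2 or 48 h 2 (adjusted p up to 0.0948).

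Among genes of synaptic vesicle release, 9 of 33 were lower and 1 higher (median -0.30). The share called was 30.3%, beside 27.7% of all genes (10.3% lower and 17.4% higher). Cplx2, complexin 2, which clamps vesicle fusion, went from 16075, 17357 and 15427 to 9391, 8217 and 8326 (log2 fold change -0.91, SE 0.19, adjusted p 0.00410), and Syt2, a calcium sensor of fast release, from 4538, 4592 and 4192 to 2525, 2377 and 2502 (log2 fold change -0.85, SE 0.17, adjusted p 0.00405). The 1 higher was the vesicular glutamate transporter Slc17a6, named after its value was seen, which moved by 0.30 and kept its call in 1 of the 6 fits that leave a WT library out. The list had 6 without WT 24 h replicate 1, 6 without WT 24 h replicate 2 and 4 without WT 48 h replicate 2.

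The injury transcription factors turned down during the second day. Of 24 regeneration-associated transcription factors, 16 were lower and 0 higher (median -0.53). Of 25 immediate early genes, 14 were lower and 0 higher (median -0.55). Over all genes, 10.3% were called lower and 17.4% higher. The lists share members, among them Fos, Jun, Atf3 and Egr1. Fos (ENSMUSG00000021250, chr12:85473890-85477273), a partner in the AP-1 complex, was at 2752, 3347 and 3682 and then at 617, 559.6 and 1033, a ratio of means of 4.43 between 24 and 48 h (log2 fold change -2.19, SE 0.36, adjusted p 0.00343). Fosb, its relative, was at 697, 1073 and 1026 and then at 136, 133 and 252 (log2 fold change -2.46, SE 0.36, adjusted p 0.00343). Arc, an immediate early gene of synaptic activity, went from 1626, 1682 and 931 to 457, 435 and 376 (log2 fold change -1.69, SE 0.37, adjusted p 0.00528).

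In Fos, Fosb and Arc every 48 h culture lay below every 24 h culture, and these calls held without any 1 WT library. Cebpd, a factor of the inflammatory response, was at 1144, 1194 and 1065 and then at 398, 414 and 423 (log2 fold change -1.46, SE 0.22, adjusted p 0.00343), with cultures of both times close together. Nfil3, a repressor in injured sensory neurons, went from 2197, 2436 and 2099 to 891, 898 and 1095 (log2 fold change -1.23, SE 0.21, adjusted p 0.00343). Nr4a1, an orphan nuclear receptor of the early response, moved by -1.57 (adjusted p 0.00343). Egr1 was at 2446, 5566 and 1800.5 and then at 1683, 824 and 1053 (log2 fold change -1.36, SE 0.34, adjusted p 0.0101), with replicate 2 far above the others at 24 h, and it lost its call without WT 24 h replicate 2 or WT 48 h replicate 2 (adjusted p up to 0.0594).

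The injury factors Atf3 and Jun, named after their values were seen, fell as well. Atf3 was at 41625, 39686 and 39603 and then at 16367, 22418 and 21398 (log2 fold change -1.02, SE 0.21, adjusted p 0.00425), and Jun at 20757, 22360.5 and 17924 and then at 13183, 13493 and 14908 (log2 fold change -0.55, SE 0.10, adjusted p 0.00343). Both fell in all 48 h cultures below all 24 h cultures. Without any 1 WT library, 11 to 17 of the transcription factors and 10 to 15 of the immediate early genes were called.

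Fos and Fosb are shown by their promoters because the falling immediate early genes are known targets of calcium and cAMP signals through the element TGACG, which the factor CREB binds. The 250 bases before the RefSeq start (GRCm38.p6) are printed as above, with TGACG in capitals, searched on both strands. The windows are chr12:85473640-85473889 on the plus strand and chr7:19310046-19310295 on the minus strand.
Fos: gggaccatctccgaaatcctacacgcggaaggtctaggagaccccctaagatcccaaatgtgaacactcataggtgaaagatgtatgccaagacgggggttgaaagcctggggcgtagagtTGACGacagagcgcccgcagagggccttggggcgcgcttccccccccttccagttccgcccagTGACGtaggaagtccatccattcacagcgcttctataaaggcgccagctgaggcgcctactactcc
Fosb: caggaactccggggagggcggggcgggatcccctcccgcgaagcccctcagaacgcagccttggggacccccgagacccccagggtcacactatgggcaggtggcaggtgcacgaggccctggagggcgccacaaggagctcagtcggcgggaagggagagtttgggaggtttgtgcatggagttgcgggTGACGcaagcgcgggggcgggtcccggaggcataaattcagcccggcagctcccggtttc
The Fos window holds 2 matches and the Fosb window 1. TGACG or its reverse complement was in 24.9% of all 12600 promoters, in 73.7% of those of the list (14 of 19 with a promoter) and in 7 of 10 of the called members. GGGCGG was in 54.7% of all promoters, in 78.9% of those of the list and in 9 of 10 of the called members. The cell cycle list held TGACG at 24.4%.

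Effector genes of regeneration went mainly up while their factors went down. Of 38 measured, 18 were higher and 6 lower (median 0.29), beside 17.4% higher and 10.3% lower over all genes. Besides Npy and Timp1, Anxa1, a membrane-binding protein of inflammation, was at 705, 532 and 649 and then at 2115, 2899 and 1722 (log2 fold change 1.81, SE 0.38, adjusted p 0.00465). Sprr1a, a cornified envelope protein that regenerating axons express, was at 1134, 2159 and 1909 and then at 4306, 13347 and 3263 (log2 fold change 1.77, SE 0.62, adjusted p 0.0415). Its mean at 48 h rested largely on WT 48 h replicate 2, and it lost its call without any 1 of 5 WT libraries, all but WT 48 h replicate 3 (adjusted p up to 0.211). The list had 15 without WT 24 h replicate 2, 15 without WT 48 h replicate 1 and 14 without WT 48 h replicate 2.

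Neuropeptide genes moved both ways. Of 29, 10 were higher and 7 lower (median -0.08, and 0.16 after quantile normalization), beside 17.4% higher and 10.3% lower over all genes. Ucn, urocortin, was at 143, 161 and 93.4 and then at 661, 1298 and 597 (log2 fold change 2.62, SE 0.65, adjusted p 0.00886), and Nts, neurotensin, was at 3189, 2683 and 3880.4 and then at 8162, 13236 and 7265 (log2 fold change 1.52, SE 0.28, adjusted p 0.00343). They stood beside Npy among the rising genes, and Calcb, Tac1 and Sst among the falling ones. The list had 11 without WT 48 h replicate 2.

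Cytokines and their gp130 signalling genes had 4 of 32 higher and 8 lower (median -0.13), beside 17.4% and 10.3% over all genes. Il11, a cytokine of the interleukin-6 family, was at 416, 249.5 and 245 and then at 3157, 2636 and 1224 (log2 fold change 2.88, SE 0.44, adjusted p 0.00343), and Il6 itself fell from 65.7, 63.6 and 100.1 to 20.5, 24.0 and 54.7 (log2 fold change -1.29, SE 0.40, adjusted p 0.0262). Cx3cl1, the neuronal chemokine fractalkine, fell by 1.04 on the log2 scale (adjusted p 0.0104). The list had 3 without WT 24 h replicate 2, 7 without WT 24 h replicate 5, 6 without WT 48 h replicate 1 and 2 without WT 48 h replicate 2. Calls ended for Il6 without 24 h 2, 24 h 5, 48 h 1 or 48 h 2 (adjusted p up to 0.110) and Cx3cl1 without 24 h 2 or 48 h 2 (adjusted p up to 0.0623).

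Every called tubulin gene rose. Of 16, 9 were higher and 0 lower (median 0.44), beside 17.4% higher and 10.3% lower over all genes. The summed count of the tubulins was from 227762 to 267378 at 24 h and from 351095 to 385435 at 48 h. Tuba1a, the main neuronal alpha tubulin, was at 57726, 50704 and 61031 and then at 104461, 115267 and 100604 (log2 fold change 0.92, SE 0.15, adjusted p 0.00343). Tubb3, the neuronal beta tubulin, was at 72688, 65257 and 79509.5 and then at 98914, 109649 and 108170.0 (log2 fold change 0.55, SE 0.11, adjusted p 0.00457), and Tubb6, a beta tubulin of growing axons and other cells, at 3034, 2857 and 2942 and then at 7863, 10615 and 5016 (log2 fold change 1.35, SE 0.28, adjusted p 0.00465). The groups were apart in each. Alpha tubulin genes share much of their sequence, so the division of reads among them is uncertain.

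Microtubule-associated proteins and neurofilaments had 2 of 29 higher and 5 lower (median -0.17), and on the plain adjusted columns 1 was higher and 7 lower. On the normalized counts the share called was 24.1%, beside 27.7% of all genes. Map7, which brings kinesin to microtubules, went from 1786, 1544 and 2078 to 4247, 3418 and 3755 (log2 fold change 1.08, SE 0.20, adjusted p 0.00343), and Mapt, the protein tau, from 18343, 17702 and 16296 to 11403, 10204 and 12051 (log2 fold change -0.64, SE 0.13, adjusted p 0.00406). The list had 4 without WT 24 h replicate 1, 2 without WT 24 h replicate 2, 4 without WT 48 h replicate 1 and 3 without WT 48 h replicate 2. Of 43 kinesins, 12 were higher and 3 lower (median 0.09), and the largest changes were in spindle motors such as Kif18b, Kif4 (40.7, 36.6 and 40.4, then 439, 416 and 145) and Kif2c (21.5, 22.7 and 25.3, then 145, 98.7 and 69.1). Kif26b, a kinesin-like protein of development, rose by 1.83 (adjusted p 0.00343). The kinesin list had 9 without WT 24 h replicate 2 and 9 without WT 48 h replicate 2. With all libraries 34.9% of the kinesins were called, beside 27.7% of all genes.

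Dynein and dynactin genes had 4 of 31 higher and 4 lower (median -0.02, and 0.04 after quantile normalization), beside 17.4% and 10.3% over all genes. On the plain adjusted columns 2 were higher and 8 lower. Dynll1, a light chain, went from 6882, 5846 and 6889 to 8753, 9027 and 8762 (log2 fold change 0.44, SE 0.09, adjusted p 0.00464), and Dctn1, the large dynactin subunit, from 20698, 22902 and 19903 to 16767, 14994 and 17452 (log2 fold change -0.37, SE 0.09, adjusted p 0.00769). Dynlrb1, the gene altered in HET, was at 5702, 5229 and 6427 and 5995, 5677 and 6372 in WT (log2 fold change 0.06, SE 0.12, adjusted p 0.747), and its HET values, 2716, 3811 and 3085 at 24 h and 3314, 3482 and 3243 at 48 h, were below all of them. The list had 3 without WT 24 h replicate 1, 4 without WT 24 h replicate 2, 3 without WT 24 h replicate 5, 2 without WT 48 h replicate 1 and 2 without WT 48 h replicate 2.

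Ribosomal protein genes were called higher more often than all genes (44.0% beside 17.4%), and oxidative phosphorylation and proteasome genes about as often (17.7% and 20.9%). Of 84 cytosolic ribosomal protein genes, 37 were higher and 0 lower (median 0.34), of 79 oxidative phosphorylation genes 14 and 0 (median 0.23), and of 43 proteasome genes 9 and 0 (median 0.12). On the plain adjusted columns 30, 8 and 6 of them were called higher, and 1 ribosomal gene lower. Rps2, of the small ribosomal subunit, went from 4569, 4445 and 5421 to 7256, 7594 and 6930.0 (log2 fold change 0.60, SE 0.13, adjusted p 0.00516), Sdhc, of respiratory complex II, from 1637, 1604 and 1949.5 to 2594, 2634 and 2585 (log2 fold change 0.60, SE 0.13, adjusted p 0.00524), and Psmd5, a proteasome assembly factor, from 2230.0, 1916 and 2280.1 to 3265, 3329 and 2853 (log2 fold change 0.56, SE 0.11, adjusted p 0.00371). These 3 kept their call without any 1 WT library. The ribosomal list had 18 without WT 24 h replicate 1, 2 without WT 24 h replicate 2, 16 without WT 48 h replicate 1 and 10 without WT 48 h replicate 2. Its summed count was 177818 in WT 24 h replicate 2 against 193850.0 and 221358 in the other 24 h cultures. The oxidative phosphorylation list had 8 without WT 24 h replicate 1, 1 without WT 24 h replicate 2, 6 without WT 48 h replicate 1, 4 without WT 48 h replicate 2 and 6 without WT 48 h replicate 3, and the proteasome list 3 without WT 24 h replicate 2 and 5 without WT 48 h replicate 2. Many ribosomal protein genes have processed copies in the genome, so single values are uncertain.

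Stress genes fell more often than they rose. Of 34 integrated stress and heat shock genes, 12 were lower and 6 higher (median -0.19), beside 10.3% and 17.4% over all genes. Sesn2, a stress-induced regulator of growth signalling, went from 3430.1, 3902 and 2699 to 1115, 983 and 1315 (log2 fold change -1.55, SE 0.26, adjusted p 0.00343), and Hmox1, the haem-degrading enzyme of oxidative stress, from 23303, 26482 and 16718 to 8196, 7862 and 7576 (log2 fold change -1.47, SE 0.27, adjusted p 0.00343). The chaperone genes Hspa1a (899, 824 and 808, then 313, 247 and 318) and Hspa1b (1140.3, 1273 and 1141, then 517, 417 and 485) fell together, but they are near-identical copies and their single values are uncertain. The list had 11 without WT 24 h replicate 2, 11 without WT 48 h replicate 1 and 11 without WT 48 h replicate 2.

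Apoptosis genes moved both ways, with 9 of 36 higher and 7 lower (median 0.06), beside 17.4% and 10.3% over all genes. On the plain adjusted columns their median was -0.01, with 7 higher and 9 lower. The death activators of the BH3-only family split: Hrk, of growth factor-deprived neurons, rose from 205, 150.5 and 145 to 525, 841 and 307 (log2 fold change 1.64, SE 0.37, adjusted p 0.00595), and Bbc3, the p53 target Puma, fell from 1961, 2127 and 1725 to 689, 837 and 957 (log2 fold change -1.23, SE 0.23, adjusted p 0.00343). Birc5, survivin, which also works in cell division, went from 65.9, 70.6 and 56.3 to 246, 199 and 179 (log2 fold change 1.67, SE 0.31, adjusted p 0.00343). The list had 9 without WT 24 h replicate 1 and 9 without WT 48 h replicate 2.

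Axon guidance genes had 14 of 57 higher and 10 lower (median 0.15), beside 17.4% and 10.3% over all genes. Epha7, an ephrin receptor, was at 238, 215 and 242 and then at 1525, 1708 and 1013 (log2 fold change 2.57, SE 0.45, adjusted p 0.00343), Unc5b, a netrin receptor, at 1775, 1500.3 and 1604 and then at 3617, 4745 and 3889.7 (log2 fold change 1.32, SE 0.24, adjusted p 0.00343), and Rgma, a repulsive guidance molecule, at 706, 988 and 600.2 and then at 267, 400.5 and 222 (log2 fold change -1.38, SE 0.29, adjusted p 0.00464). Ephb1, another ephrin receptor, moved by -1.65 (adjusted p 0.00544). All 4 kept their call without any 1 WT library, while the list had 14 without WT 24 h replicate 2 and 11 without WT 48 h replicate 2.

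Integrins and laminins, the receptors and proteins by which axons hold to the matrix, had 7 of 27 higher and 1 lower (median 0.22). The share called was 29.6%, beside 27.7% of all genes (17.4% higher and 10.3% lower). Itgb5 went from 981, 780.3 and 897 to 1910.2, 2096 and 1258 (log2 fold change 0.96, SE 0.21, adjusted p 0.00537), and the 1 lower was Itgb6, from 293, 276 and 376 to 102, 106 and 162 (log2 fold change -1.37, SE 0.27, adjusted p 0.00377). Itga2 rose by 1.59 and Lamb3 by 1.32, and their calls ended for Itga2 without 24 h 5, 48 h 1 or 48 h 2 (adjusted p up to 0.0748) and Lamb3 without 48 h 2 (adjusted p 0.0815). The list had 5 without WT 24 h replicate 1, 5 without WT 24 h replicate 5, 5 without WT 48 h replicate 1 and 3 without WT 48 h replicate 2.

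Among neurotrophic factor receptors and ligands, 4 of 27 were higher and 5 lower (median 0.17). The share called was 33.3%, beside 27.7% of all genes. Kit, the stem cell factor receptor of a class of nociceptors, went from 2015, 2649 and 2139 to 1339.5, 1081 and 1422 (log2 fold change -0.82, SE 0.15, adjusted p 0.00343), and Hgf, hepatocyte growth factor, from 383, 336 and 486 to 170.1, 176 and 224 (log2 fold change -1.07, SE 0.25, adjusted p 0.00729). The growth factor gene Fgf2 rose by 1.14 (adjusted p 0.0197), and the call ended for Fgf2 without 24 h 1, 24 h 2, 48 h 1 or 48 h 2 (adjusted p up to 0.105).

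Hox genes, which keep the position of a cell along the body axis, had 12 of 33 higher and 0 lower (median 0.60). Over all genes, 17.4% were called higher and 10.3% lower. Hoxa3 was at 46.7, 39.7 and 55.7 and then at 132, 171 and 107 (log2 fold change 1.49, SE 0.37, adjusted p 0.00864). The Hox list had 7 without WT 24 h replicate 1 and 5 without WT 24 h replicate 2. It had 7 without WT 48 h replicate 1 and 6 without WT 48 h replicate 2. Of 32 cholesterol and fatty acid synthesis genes, 4 were lower and 0 higher (median -0.12), with Scd1, which makes monounsaturated fatty acids, at 15941, 16460.4 and 17502 and then at 11518, 7569 and 13320.5 (log2 fold change -0.66, SE 0.22, adjusted p 0.0319). Its call ended for Scd1 without 24 h 1, 24 h 2, 24 h 5, 48 h 1 or 48 h 2 (adjusted p up to 0.180). That list had 1 without WT 24 h replicate 1, 2 without WT 24 h replicate 2 and 1 without WT 48 h replicate 2. With all libraries the share called was 12.5% of that list and 21.4% of the Rab GTPases, beside 27.7% of all genes. Rab GTPases, the switches of membrane traffic, had 6 of 56 higher and 6 lower (median 0.00), with Rab34 at 275, 268 and 274 and then at 673, 838 and 473 (log2 fold change 1.24, SE 0.26, adjusted p 0.00455), and with 5 without WT 48 h replicate 2.

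Simple epithelial keratin and tight junction genes had 3 of 20 higher and 4 lower (median 0.11), a share called of 35% beside 27.7% of all genes. Krt19, a keratin of simple epithelia, was nonetheless among the largest rises, from 47.0, 37.6 and 24.8 to 537, 536 and 127 (log2 fold change 3.20, SE 0.59, adjusted p 0.00343), whereas Cdh1, E-cadherin, fell from 8120.1, 10673 and 8480.2 to 5244, 4788 and 6298 (log2 fold change -0.74, SE 0.19, adjusted p 0.0104). Cldn4, a tight junction claudin, rose by 2.63. Calls ended for Cdh1 without 24 h 2 or 48 h 2 (adjusted p up to 0.0583) and Cldn4 without 24 h 2 or 48 h 2 (adjusted p up to 0.0963), and the list had 4 without WT 24 h replicate 2 and 4 without WT 48 h replicate 2. Of the 36 lists, 13 had from 12.5% to 30.3% of their members called, a share near or below the 27.7% of all genes.

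Few genes turned back after 24 h strongly enough to be called in both steps of the fit to all 18 samples. In WT, 19 genes (0.11% of those tested) were called in opposite directions from 12 to 24 h and from 24 to 48 h: 18 rose and then fell, and 1, Kirrel3, fell and then rose. Another 135 genes rose in both steps, 41 fell in both, and 4577 of the genes called from 24 to 48 h were not called in the earlier step. Because both steps share the 24 h cultures, a culture that stands apart at 24 h alone produces opposite changes, so these counts are a description with no test. Without the rule on p, the 3 cultures at 24 h lay above all 6 others in 511 genes (2.97%) and below them in 262 (1.52%).

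Among the genes that rose and fell was Hrh1, the histamine receptor that mediates itch and allergy. It was at 724, 817 and 804 at 12 h, at 1666, 1937 and 2130.0 at 24 h and at 607, 1161 and 859.7 at 48 h, with log2 fold changes of 1.28 (adjusted p 0.0329) and -1.17 (adjusted p 0.0114). The 24 h cultures were apart from both other times, which overlapped each other. Amz1, a zinc protease, was at 788, 847 and 597, then at 1581, 1856 and 1387 and then at 636, 909 and 756. Prrg4, a membrane protein with a Gla domain, was at 939.8, 1121 and 1128, then at 2531, 2904 and 2391 and then at 1150.2, 1694 and 1143.

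Steap2, a metal reductase, was at 1018, 1030.1 and 1169.5, then at 2152, 2353 and 2588 and then at 1153, 1854 and 1318, and Rhov, a small GTPase, at 1405, 1454 and 1084, then at 2505, 2819 and 2675 and then at 1398, 2186 and 1612. Arvcf, a catenin of cell junctions, was at 4320.2, 4393 and 4300.4, then at 6575, 6986 and 6960.1 and then at 3597, 5144 and 4905. In each of these genes all 24 h cultures lay above all cultures of the other times.

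Kirrel3 (ENSMUSG00000032036, chr9:34485894-35036716), an adhesion molecule of sensory axon targeting and synapses, was the only gene with a trough. It was at 679, 729 and 786 at 12 h, at 309, 390.4 and 298 at 24 h and at 920.5, 523 and 642 at 48 h, with log2 fold changes of -1.14 (adjusted p 0.0450) and 1.03 (adjusted p 0.0186). The range of its 48 h cultures included that of its 12 h cultures.

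The 12 others were B230219D22Rik, Lmbrd1, Chmp1b, Metap1, Fam135a, Ehbp1, Stmn4, Osbp2, Akap17b, Rchy1, Apaf1 and Rbm43. Most were abundant, with 24 h means from 1729 to 17503 normalized counts. Across the 19, the second step undid from 62.8% to 97.4% of the first change in mean normalized counts, with a median of 80.8%. That 0 of the 19 were called between 12 and 48 h by limma (0 also at an unadjusted p under 0.05) follows largely from choosing genes with opposite steps. In 18 of 19 no culture of 24 h overlapped a culture of 12 or 48 h, the exception being Stmn4, a stathmin of growing neurites (2812, 3089 and 2849, then 4166, 6025 and 4924, then 3009.8, 4228 and 3271).

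The 19 calls lay close to the threshold, with adjusted p from 0.0212 to 0.0481 in the first step and from 0.0114 to 0.0472 in the second. The count was 0 without WT 24 h replicate 1, 2 or 5, and 0 without WT 48 h replicate 1. It was 33 without WT 48 h replicate 2 and 6 without WT 48 h replicate 3. A fit to the 9 WT samples alone gave 109, and one with covariates for the 2 absent directions gave 409. Leaving out 1 HET library gave 11 to 162, the 162 without HET 48 h replicate 3. The HET cultures, which shared no sample with WT, had mean changes of the same signs as WT in both steps in all 19 genes. The share of all genes with such opposite signs in HET was not counted, so this has no background beside it. In HET, 18 of the 19 were called from 12 to 24 h and 16 from 24 to 48 h. Over all genes, 18.9% were called from 12 to 24 h in HET and 2.49% from 24 to 48 h. The spread of each gene was estimated from all 18 samples together. The HET calls are therefore not independent of the WT calls that chose the genes. In HET, Hrh1 was at 859.5, 794 and 867, then at 2527, 1847 and 2478 and then at 455, 682 and 1529, and Kirrel3 at 581, 665 and 466, then at 295, 293 and 309.8 and then at 1215, 710.2 and 363, with replicate 3 at 48 h nearest to the 24 h values in both.

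**Figure D4:**
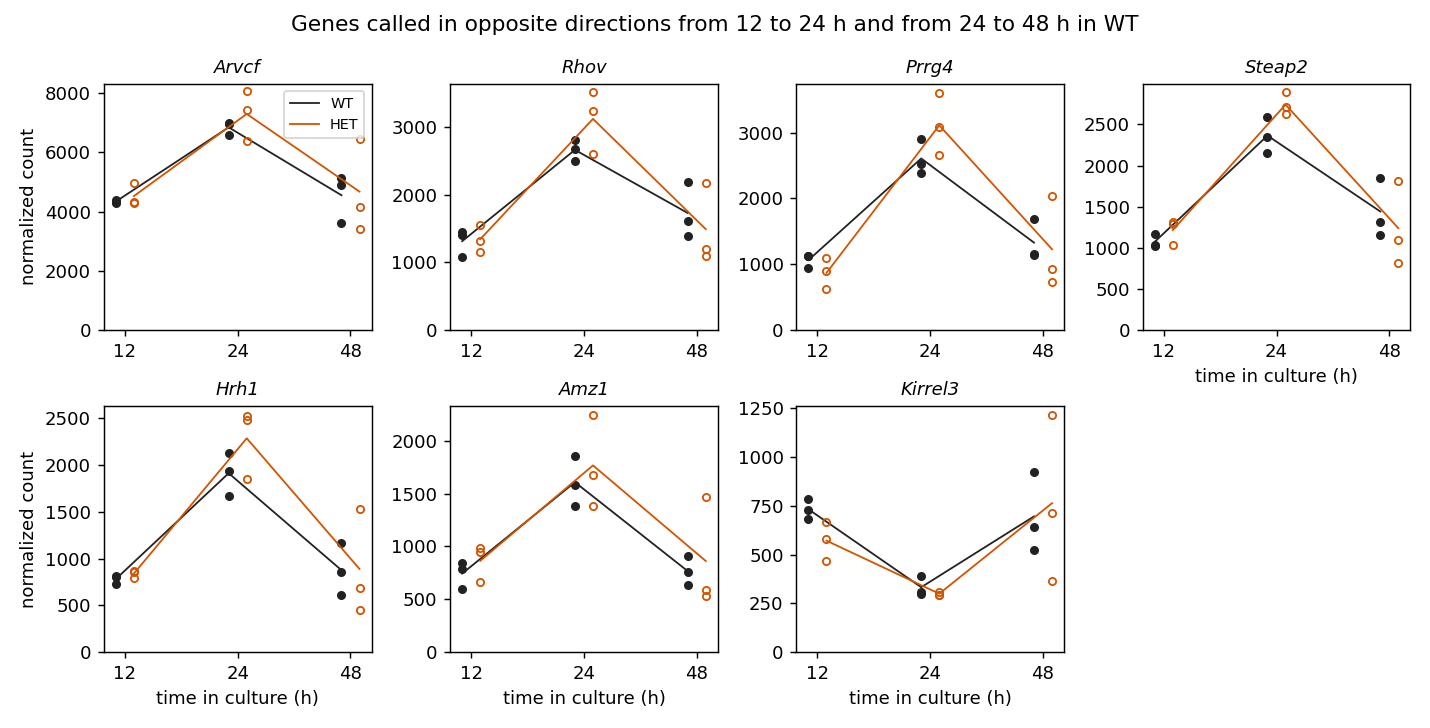
Normalized counts of the 6 genes that rose and then fell with the largest changes and of Kirrel3, which fell and then rose, at 12, 24 and 48 h (times equally spaced, axes from 0). Points are single cultures, filled for WT and open for HET, and lines join group means; in the 6 genes every WT culture at 24 h lies above every WT culture at 12 and 48 h, and in Kirrel3 below.

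The HET cultures moved the same way in most of the genes called in WT. Between 24 and 48 h, 429 genes were called in HET (2.49%), 244 higher (1.42%) and 185 lower (1.08%). That number was 2560 without HET 48 h replicate 3 (1427 higher, 1133 lower) and 0 without HET 48 h replicate 1 or 2. Of the 2999 genes higher in WT, 82.8% had a positive change in HET, against 53.4% of all genes, and of the 1773 lower in WT, 85.1% had a negative one, against 46.6%. The median change of the 2999 was 0.60 in WT and 0.19 in HET, and that of the 1773 was -0.71 and -0.26. Without HET 48 h replicate 3, the shares were 92.2% and 93.7% and the HET medians 0.35 and -0.45. The genes were chosen by their WT calls, so the size of the WT medians is no finding. Limma called 0 of these genes in the opposite direction in HET, where 25 of the 2999 and 13 of the 1773 had an unadjusted p under 0.05 in that direction, and 145 and 82 were called in the same one (996 and 702 without HET 48 h replicate 3). The WT and HET calls share 1 estimate of spread for each gene, so they are not independent.

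Some gene groups had medians of the same sign in both genotypes and some did not. Cell cycle genes had a median of 1.24 in WT and 0.52 in HET (0.89 without HET 48 h replicate 3). Fibroblast and matrix genes had 1.12 and 0.40 (0.77), and neutrophil and red cell genes -2.75 and -1.90 (-2.94). Non-peptidergic nociceptor genes had opposite signs with all cultures in the fit, at -0.98 in WT and 0.13 in HET (-0.21), and so had regeneration effector genes, at 0.29 and -0.21 (-0.20). In HET, 4 of the 27 non-peptidergic genes were called higher and 0 lower. Of the 38 effector genes 0 were called higher there and 3 lower. Over all genes, 1.42% were called higher in HET and 1.08% lower. The differences between medians were not tested.

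**Figure D5:**
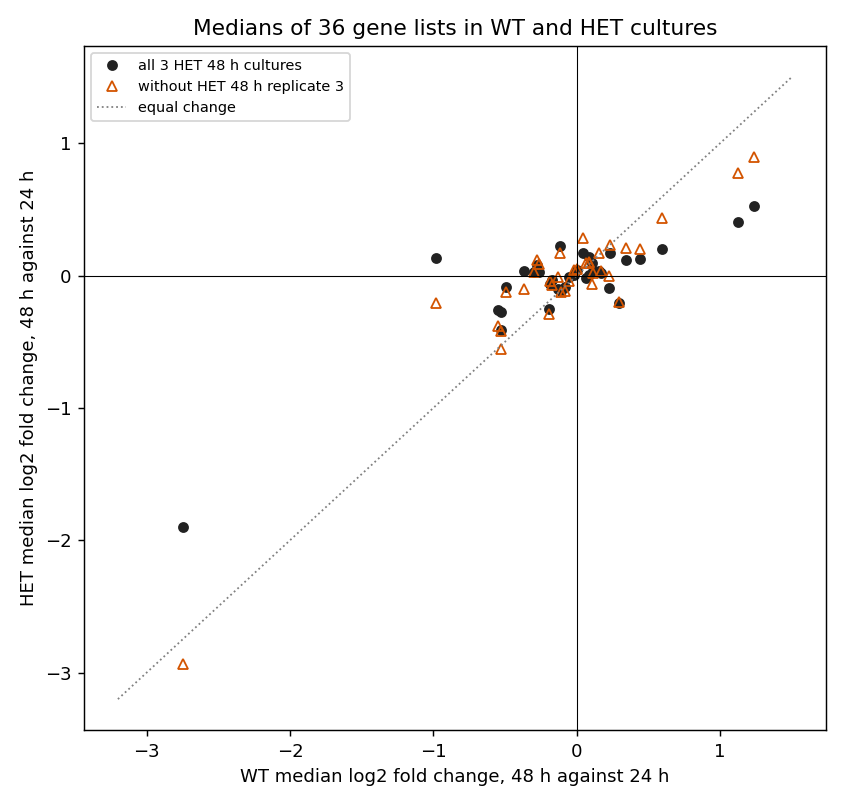
Median log2 fold change from 24 to 48 h of 36 gene lists in WT (x axis) and HET (y axis), with dots for all 3 HET 48 h cultures, triangles without HET 48 h replicate 3, and a dotted line of equal change. Cell cycle genes lie at 1.24 in WT and 0.52 in HET (0.89 without replicate 3) and neutrophil and red cell genes at -2.75 and -1.90, whereas non-peptidergic nociceptor genes lie at -0.98 in WT and 0.13 in HET.

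The difference between the steps was tested for each gene. No gene (0 of 17198) had a change in WT that differed from that in HET in limma after adjustment, in the fit without a replicate block, while 2749 passed 0.05 with no adjustment. By p, the first 3 were Sdr42e1, Grpr and Jph4, each with an adjusted p of 0.180. Sdr42e1, a dehydrogenase, was at 497, 553 and 596 and 559.8, 956 and 402 in WT, and at 959, 765 and 663 and 248, 251 and 280.4 in HET, so it fell in HET (adjusted p 0.0145 in limma) and was not called in WT. Grpr, the receptor for gastrin-releasing peptide, was at 36.1, 37.2 and 38.6 and 12.2, 13.5 and 8.46 in WT, and at 24.6, 27.3 and 20.7 and 27.1, 32.4 and 44.1 in HET. Jph4, which ties the cell membrane to the endoplasmic reticulum, was at 2084, 2613 and 2203 and 1469, 1138 and 1671 in WT, and at 1684, 2175 and 1652 and 2386, 2123 and 2425 in HET. Both fell in WT and were not called in HET. Without WT 48 h replicate 3, 1 gene passed. With the replicate number as a block 465 passed, so the count of 0 holds only for the fit without it. Whether the numbers pair the cultures is not known.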

How the data were processed

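Total RNA of 18 cultures was sequenced. Reads were processed with CASAVA 1.8.2, build mm10 and edgeR, per the submitters' processing notes; aligner, counter, strand setting and annotation are not given in the sources used here. The authors deposited normalized counts, which per the file headers and values are an adjusted expression signal scaled to nearly 1 common total, beside a plain adjusted signal and FPKM values. None are whole reads, so depth is unknown and no counting interval can be given. The tests used the normalized counts; the deposited FPKM values were summarised but not tested.

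Values were taken as log2(normalized count + 1), and genes needed a mean of at least 1 normalized count, which removed 0 genes. A limma 3.58.1 fit in R 4.3.3 (empirical Bayes with a trend on mean level, 12 residual degrees of freedom) had 1 coefficient for each of the 6 genotype and time groups of all 18 samples, and p-values were adjusted by Benjamini-Hochberg over 17198 genes for each contrast. The fit was tested on simulated data. Contrasts were WT 48 against 24 h, the earlier step, 48 against 12 h, the HET steps, and WT minus HET. Named genes were the 10 higher and 10 lower called genes of largest change with a mean of at least 40 normalized counts and no overlap of cultures, up to 6 reversing genes in each order, up to 4 called genes of each list by size of change with that same mean, the defining markers of lists, the 3 lowest p-values of the difference where none passed, and Dynlrb1; some genes that the rule names are not reported here. Members and lists were chosen with earlier results of these data known. Promoters came from RefSeq (GRCm38.p6) and gene coordinates from the GENCODE annotation of GRCm38. Alternatives were other scalings, pseudocounts, filters and samples in the fit, the replicate number as a block, the directions that the deposited values lack as covariates, and leaving out single libraries. Leaving out HET libraries was chosen after seeing the data.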

Additional observations from a re-analysis of the deposited data

Results flagged for a closer look

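In Pmaip1 and Sprr1a, every WT culture at 48 h lay above every WT culture at 24 h, while the HET cultures went the other way. Pmaip1, the death activator Noxa, was at 863, 1108 and 1144 normalized counts at 24 h and at 1554, 2998 and 1577 at 48 h in WT, and at 1548, 849 and 1366 and then 700.2, 849 and 535 in HET, where the lowest culture at 24 h and the highest at 48 h were nearly equal. The WT change exceeded the HET change by 1.75 on the log2 scale (SE 0.41, p 5.43e-04 and adjusted p 0.180 in limma). Sprr1a, a gene of regenerating axons, was at 1134, 2159 and 1909 and then 4306, 13347 and 3263 in WT, and at 4371, 1463 and 1959 and then 1265, 1386 and 528 in HET. Its WT change exceeded the HET change by 3.03 (SE 0.87, p 0.00295 and adjusted p 0.180 in limma). Neither difference passed the adjusted threshold over all genes. Both genes were flagged by this same difference, so their unadjusted p-values are no separate finding. In this limma fit 2749 of 17198 genes had an unadjusted p under 0.05 for it. In both genes WT 48 h replicate 2 was the highest of these cultures and HET 48 h replicate 3 the lowest. HET 24 h replicate 1 was the highest HET culture in both, at 1548 in Pmaip1 and 4371 in Sprr1a. The part of these cultures in the result was not tested.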

How the results depend on the processing

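The number of genes called from 24 to 48 h in WT was 4772, and it was 4706 on the plain adjusted columns, 4453 after quantile normalization, 4772 and 4766 with pseudocounts of 0.1 and 10, 4862 with a minimum mean of 10, 4854 with the 9 WT samples only, 5066 with the 6 WT samples at 24 and 48 h only, and 4839 with the absent directions as covariates. Leaving out 1 WT library gave 2236 (without WT 24 h replicate 2) to 4485 (without WT 48 h replicate 3), with 2297 without WT 48 h replicate 2 and 3134 without WT 48 h replicate 1; such fits hold fewer samples, and no other cause was tested. With 1 HET library left out, the number called in WT was 4476 to 5401, the latter without HET 48 h replicate 3. The number of reversing genes, 19, was 109 with the 9 WT samples only, 409 with the absent directions as covariates, and 0 to 33 with 1 WT library left out. It was 11 to 162 with 1 HET library left out, the 162 without HET 48 h replicate 3. The cause was not tested. The number of genes whose change differed between WT and HET, 0, was 0 or 1 with 1 library left out, the 1 without WT 48 h replicate 3. The replicate numbers 1 and 2 occur at both times and 5 and 3 at 1 time each, and deviations of same-numbered WT cultures correlated at 0.04 and -0.14 between those times. Between WT and HET cultures of 1 time, same-numbered deviations correlated at 0.19, 0.03 and 0.16 at 12 h, at 0.11, -0.21 and 0.26 at 24 h and at 0.32, 0.21 and 0.46 at 48 h, where each culture correlated best with its own number. At 12 h each WT culture also correlated best with the HET culture of its own number. Not every pair was over 0.1, so these values do not settle whether the numbers pair the samples. The main fit has no block, and fits with a block are given beside it. With the replicate block, 6622 genes were called from 24 to 48 h, 125 reversed and 465 differed between WT and HET; with the block and the absent directions together, 6598, 787 and 323, and the cause was not tested. Over 187 named genes and 17 fits, 2925 of 3179 values kept direction and side of the threshold, 234 lost a call, 19 gained one and 1 reversed: Xist, at 0.41 without a call, was at -2.82 with the replicate block and the absent directions. Of 612 counts for the 36 lists, 570 stayed within 1.5 times the number called and 42 did not. The fits with 9 or 6 WT samples cannot give the difference, and the one with 6 cannot give the reversal. Count models (edgeR, DESeq2) were not run, since the values are not whole reads. Depth is unknown, so no limit from counting error can be set, and genes with values of a few normalized counts, such as Csf2 at 24 h, are the least certain.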
